A study of Mus musculus with 267 samples.

Results

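Lysosome genes are the subject here. They comprise 35 genes for lysosomal enzymes, membrane proteins, proton pump subunits and the transcription factors that regulate them. Chromatin immunoprecipitation sequencing (ChIP-seq) was used to follow histone marks, RNA polymerase II (Pol II) and transcription factors at these genes in mouse bone marrow-derived macrophages (BMDMs) before and after interleukin-4 (IL-4). A region or peak was assigned to a lysosome gene when its centre lay within 25 kb of the gene's start and no other protein-coding gene start was nearer. Regions within 1 kb of the start were called promoters and the rest distal, and positions are given in kb from the start, with negative values upstream. Where a gene had several promoter regions, values are given for the one nearest to the start. Atp6v1h, a subunit of the cytosolic part of the pump, had no region and no peak in any file, and the other 34 genes had at least 1. Assignment by distance does not show that a region acts on the gene.

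The macrophages came from adult female mice of 5 inbred strains and were grown from bone marrow in M-CSF. They were left untreated (basal) or given IL-4 at 20 ng/mL for 24 h, and in C57 also for 1 h and 6 h. The strains were SPRET/EiJ (SPRET below), PWK/PhJ (PWK), NOD/ShiLtJ (NOD), BALB/cJ (BALB) and C57BL/6J (C57). A further pair of genotypes was Egr2 fl/fl, in which both Egr2 alleles carry loxP sites but no Cre is present, and LyzM-Cre Egr2 fl/fl, in which Cre under the Lyz2 (LyzM) promoter acts in myeloid cells. Both genotypes therefore carried floxed Egr2 alleles, and loss of Egr2 could not be checked here, because no RNA values were analysed and the sites counted do not measure its deletion. The paper reports that Egr2 was efficiently deleted in BMDMs of the LyzM-Cre genotype. The groups compared held 1 to 4 libraries, in most cases 2. By the rule above the lysosome genes held 240 of 67742 open-chromatin regions in C57, 199 of 54022 in BALB, 210 of 68932 in NOD, 207 of 60175 in PWK and 200 of 54755 in SPRET. They held 265 of 77955 regions in the C57 time course, 130 of 30675 EGR2 sites, and 22 of 4677 sites at which Egr2 genotypes were compared.

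Lysosomes are acidic compartments in which macrophages digest what they engulf. Their acid pH is made by the vacuolar proton pump, a rotary enzyme with a membrane part (V0) and a cytosolic part (V1), and it is needed by cathepsins, glycosidases, lipases and phosphatases alike. Many lysosomal genes carry an E-box called the CLEAR element in their promoters, which is bound by the related factors TFEB, TFE3 and MITF. IL-4 acts on macrophages through STAT6 and induces the transcription factor EGR2. H3K27ac marks active promoters and enhancers, H3K4me2 marks both classes of element, H3K4me3 marks promoters, and Pol II marks transcription.

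Values are normalized tags, that is, reads within a region scaled to 10000000 reads of the library. Library totals ran from 4691644 to 29050468 reads with a median of 12936233. In C57 the share of H3K27ac tags that fell in the open-chromatin regions was 59.6 to 65.4% in basal libraries and 38.2 to 43.2% in 24 h libraries, so basal and IL-4 libraries differed in this respect at all regions together. Marker promoters had a macrophage pattern, with exceptions in SPRET. There Fcgr1, a macrophage marker, averaged 13.7 tags and Zbtb46, a dendritic cell marker, 29.5, and the macrophage marker Csf1r had no region. In the other strains each macrophage marker lay above each marker of other cell types. Promoter H3K27ac of the macrophage markers averaged 13.7 to 962 tags in the 29 of 30 gene and strain pairs with a region, and that of markers of other cell types had a region in 16 of 70 pairs, with averages of 1.31 to 29.5 tags. In a culture, fewer cells carrying a signal and less signal per cell cannot be told apart.

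Sequences were examined for the CLEAR centre TCACGTGA, which contains the E-box CACGTG, and for a STAT6-type site (TTC and GAA with 4 bases between them), the EGR core GCGTGGG and the PU.1 site GAGGAAGT, on both strands. Promoter windows from RefSeq (build GRCm38.p6, 250 bases before to 50 after the start) were found for 30 of the 35 genes, the exceptions being Ctsb, Npc1, Asah1, Atp6v0d2 and Atp6v1h. TCACGTGA lay in the promoter windows of 4 of these 30 genes (13.3%), Ctsd, Gla, Mcoln1 and Atp6v1a, and in those of 1.41% of 17492 genes in all. The count holds for these windows only. EGR2 sites at the starts of Lamp1 and Hexa also held TCACGTGA, as did that of Ctsb, which had no window. CACGTG lay in 26.7% of the lysosome promoters and 8.91% of all. For the other motifs the lysosome promoters and all promoters held 6.67% against 7.37% (STAT6-type), 6.67% against 7.29% (EGR) and 10.0% against 3.64% (PU.1). The bases before the start of Ctsd (chr7:142387828-142388077, minus strand), Gla (chrX:134601006-134601255, minus strand) and Mcoln1 (chr8:3500269-3500518, plus strand) are shown because they hold the motif for which the gene set is known, with TCACGTGA in capitals.
Ctsd promoter: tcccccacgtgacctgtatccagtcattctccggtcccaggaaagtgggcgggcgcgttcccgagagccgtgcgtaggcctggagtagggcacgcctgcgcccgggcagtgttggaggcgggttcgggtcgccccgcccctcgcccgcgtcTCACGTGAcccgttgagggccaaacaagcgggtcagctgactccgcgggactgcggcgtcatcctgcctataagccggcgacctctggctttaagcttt
Gla promoter: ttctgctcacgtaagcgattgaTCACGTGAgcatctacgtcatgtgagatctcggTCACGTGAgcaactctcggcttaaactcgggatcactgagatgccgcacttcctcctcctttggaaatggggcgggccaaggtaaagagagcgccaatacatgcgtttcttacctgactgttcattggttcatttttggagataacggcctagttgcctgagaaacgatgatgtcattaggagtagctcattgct
Mcoln1 promoter: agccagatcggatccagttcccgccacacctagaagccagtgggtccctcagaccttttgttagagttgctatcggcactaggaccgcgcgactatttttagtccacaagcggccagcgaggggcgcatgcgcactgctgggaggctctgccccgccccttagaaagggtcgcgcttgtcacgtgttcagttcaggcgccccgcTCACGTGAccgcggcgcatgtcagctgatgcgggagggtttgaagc

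The next 3 sequences are EGR2 sites of the C57 time course, given on the plus strand of the same build. Of the Atp6v0a1 site at −15.1 kb (chr11:100994161-100994543, 383 bases) the 286 bases that hold its STAT6-type sites are printed (chr11:100994228-100994513). It and the Lamp2 site at −9.7 kb (chrX:38466079-38466321) are shown because histone marks and factor tags there are described below, and the Lamp2 site at −17.3 kb (chrX:38473590-38473868) because it holds a CLEAR centre outside a promoter. All 3 lie outside the gene, upstream of its start. Capitals mark STAT6-type sites, of which the Atp6v0a1 site held 3 and the nearer Lamp2 site 1, and TCACGTGA in the farther Lamp2 site. Among all EGR2 sites TCACGTGA was found in 4.62% of the 130 lysosome sites and 0.763% of 30662 sites, and STAT6-type sites in 9.23% and 8.04%. The 6 lysosome sites with TCACGTGA lay at the starts of Ctsb, Ctsd, Lamp1, Mcoln1 and Hexa and at −17.3 kb from Lamp2. All but the Lamp2 site were thus promoter sites, and the shares were not split into promoter and distal sites. The shares for the EGR core were 7.69% and 10.0%, and for the PU.1 site 10.8% and 8.77%.
Atp6v0a1 −15.1 kb: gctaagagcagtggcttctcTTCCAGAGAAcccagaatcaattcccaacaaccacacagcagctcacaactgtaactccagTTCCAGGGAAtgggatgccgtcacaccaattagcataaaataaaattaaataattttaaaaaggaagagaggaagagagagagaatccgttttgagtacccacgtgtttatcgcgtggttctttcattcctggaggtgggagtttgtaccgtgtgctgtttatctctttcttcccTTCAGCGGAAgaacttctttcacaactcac
Lamp2 −9.7 kb: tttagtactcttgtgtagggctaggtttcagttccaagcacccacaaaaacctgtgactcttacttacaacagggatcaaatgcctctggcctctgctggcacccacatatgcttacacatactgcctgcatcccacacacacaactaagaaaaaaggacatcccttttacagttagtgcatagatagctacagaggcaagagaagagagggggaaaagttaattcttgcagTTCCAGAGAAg
Lamp2 −17.3 kb: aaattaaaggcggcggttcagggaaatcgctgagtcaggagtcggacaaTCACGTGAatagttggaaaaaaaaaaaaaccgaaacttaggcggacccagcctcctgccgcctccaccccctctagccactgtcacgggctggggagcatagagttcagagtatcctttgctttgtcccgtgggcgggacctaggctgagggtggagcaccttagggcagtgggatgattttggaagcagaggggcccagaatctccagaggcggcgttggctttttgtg

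The first question was how H3K27ac and Pol II at the lysosome genes differed after 24 h of IL-4 in each strain. Most lysosome regions did not pass the test in either direction. Without the replicate block the regions that did lay at the proton pump genes Atp6v0d2 and Atp6v0a1 and at Ctsd, and with the block Pol II calls at 24 h covered more genes in PWK and SPRET. For the blocked calls no share of all regions is given. Each strain was tested within its own table over all of its regions (limma on log2 of normalized tags plus 1, adjusted p under 0.05), so differences between strains were not tested. For H3K27ac, 0 of the 240 lysosome regions passed in C57, beside 0% of all regions. None passed in BALB, where 2.26% of all regions did, or in NOD (0.0566%), and unadjusted p was under 0.05 at 68 regions in C57, 7 in BALB and 21 in NOD. In PWK 2 regions were higher (0.535% of all regions passed) and in SPRET 3 were higher (1.19%). DESeq2 on the recovered reads called 5, 5, 2, 4 and 8 lysosome regions in the order C57, BALB, NOD, PWK and SPRET, and edgeR 1, 3, 1, 1 and 4. Here and below, counts at unadjusted p under 0.05, from DESeq2 or edgeR, or with a library left out stand without the share of all regions. An excess at lysosome genes cannot be read from them.

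For Pol II, 2 lysosome regions were higher in C57 (0.319% of all regions passed), 5 in BALB (0.707%) and 4 in PWK (1.72%). In SPRET 5 were higher and 2 lower (1.05%). In NOD no region of any gene passed (0%), with unadjusted p under 0.05 at 29 lysosome regions, and DESeq2 called 4 there and edgeR 1. With the replicate number as a block, which the check of pairing allowed for Pol II in C57, PWK and SPRET, the counts were 4 higher and 5 lower in C57, 28 higher and 8 lower in PWK, and 44 higher and 21 lower in SPRET. The share of all regions called with the block is not given, so an excess at lysosome genes cannot be read from these counts. All calls made without the block were kept in these 3 strains. In C57 the higher regions under the block were those of Atp6v0a1 and Atp6v0d2, 2 each, and the 5 lower ones lay at Ctsd. In PWK 7 of the 28 higher regions lay at these pump genes and 21 at 9 others. These were Ctss and Psap with 4 each, Ctsk and Mitf with 3 each, Acp5 and Ctsl with 2 each and Ctsz, Lamp2 and Npc1 with 1 each. The 8 lower ones lay at Grn, Ctsb, Laptm5 and Ctsd. In SPRET 24 of the 44 higher regions lay at Psap, 10 at the pump genes, 5 at Ctsz and the rest at Ctsk, Ctss and Mitf. The lower ones were 10 at Ctsd, 4 each at Grn and Laptm5, 2 at Man2b1 and 1 at Acp2. The counts depended on single libraries. The C57 count was 0 with 24 h replicate 1, 24 h replicate 2, basal replicate 3 or basal replicate 4 left out and 1 with basal replicate 2 left out. In BALB it was 0 with basal replicate 3 left out, 1 with 24 h replicate 1 or 24 h replicate 2 left out, 2 with basal replicate 2 left out and 3 with basal replicate 1 left out, and 2 with the median-ratio scaling of the regions described below. In PWK it was 1 with 24 h replicate 2 left out and 2 with 24 h replicate 3, basal replicate 2 or basal replicate 3 left out. In SPRET it was 1 with 24 h replicate 1 left out, 2 with 24 h replicate 2 or basal replicate 1 left out and 4 with 24 h replicate 3 or basal replicate 3 left out. The H3K27ac counts were 0 with 24 h replicate 1, 24 h replicate 2 or basal replicate 1 left out in PWK. In SPRET they were 0 with 24 h replicate 1, 24 h replicate 2 or basal replicate 1 left out and 1 with basal replicate 2 left out. The 0 in BALB became 3 with 24 h replicate 2 left out and 19 with 24 h replicate 1 left out. The 0 in NOD became 1 with basal replicate 1 left out and 3 with basal replicate 2 left out.

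Across all lysosome regions the median log2 fold change of H3K27ac was −0.42 in C57, −0.40 in BALB, −0.22 in NOD, −0.32 in PWK and −0.05 in SPRET. The medians over all regions were −0.28, −0.30, −0.20, −0.18 and −0.09. Among regions with at least 16 tags in either group, compared by group means, the lysosome medians were −0.53, −0.32, −0.22, −0.29 and −0.04. Those of all such regions were −0.62, −0.37, −0.40, −0.26 and −0.14, so the lysosome median was then the less negative one except in PWK. Scaling by the median ratio of regions in place of the library total moved the C57 median over all regions from −0.28 to 0.03 and the lysosome medians to between −0.11 (PWK) and 0.03 (SPRET), so the lower H3K27ac at lysosome regions was close to that of all regions and mostly went away with this scaling. Pol II medians at lysosome regions were 0.12 in C57, 0.49 in BALB, 0.18 in NOD, 0.04 in PWK and 0.01 in SPRET, beside −0.03, 0.32, −0.02, −0.03 and −0.10 over all regions. In BALB the median-ratio scaling took the Pol II median of all regions from 0.32 to 0.00 and that of lysosome regions from 0.49 to 0.15.

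**Figure D1:**
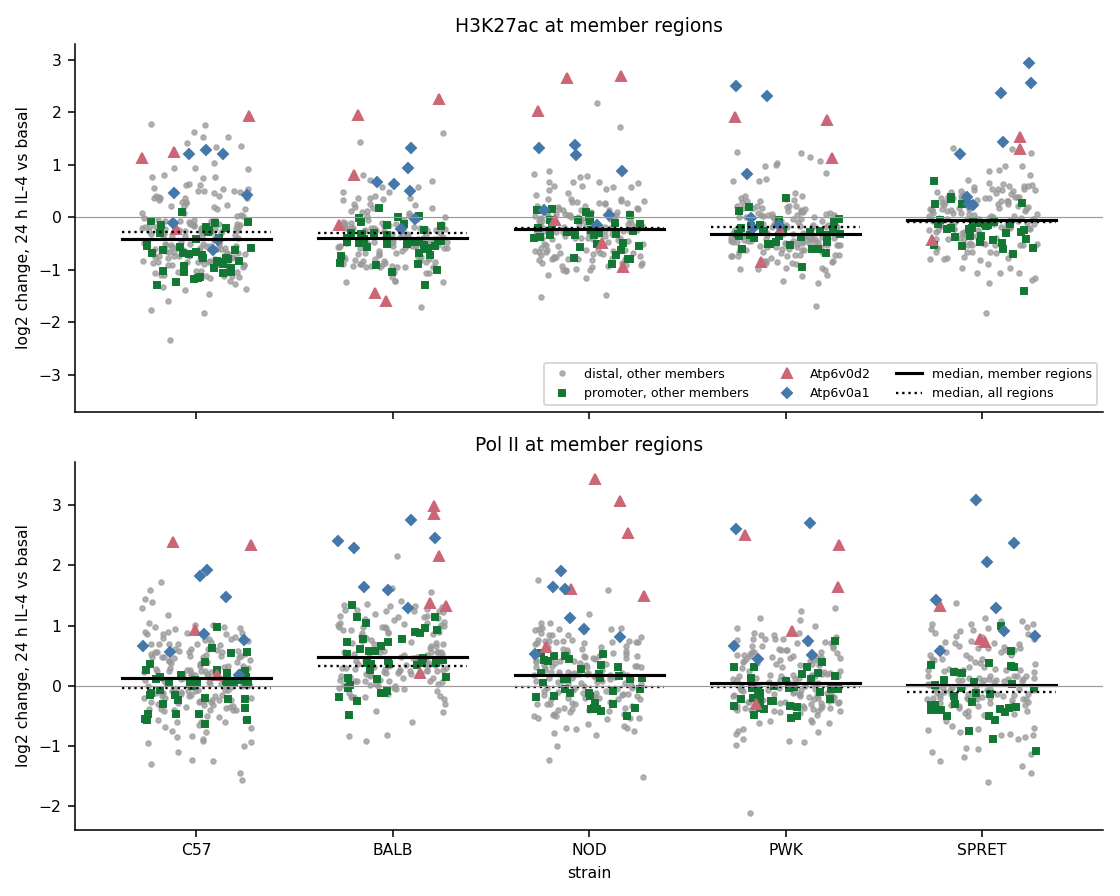
Log2 fold change between 24 h of IL-4 and basal (y axis) of H3K27ac (top) and Pol II (bottom) at each lysosome region in the 5 strains (x axis). Grey points are distal regions, green squares promoters, red triangles Atp6v0d2 and blue diamonds Atp6v0a1, and the solid and dotted lines are the medians of lysosome regions and of all regions. For Pol II, regions of the 2 pump genes make up most of the highest points in each strain, and the median lines of H3K27ac lie below 0.

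Of the proton pump genes, Atp6v0d2 had Pol II calls in C57, BALB, PWK and SPRET. It encodes the d2 subunit of the V0 part, a form made by osteoclasts and some macrophages. Its promoter region (chr4:19922055-19923055 in mm10, over the 5′ UTR) held Pol II at 174, 57.8, 62.2 and 44.6 tags in the basal libraries and 568, 302 and 336 tags at 24 h in C57 (log2 fold change 2.39, SE 0.42, adjusted p = 0.027). The 24 h libraries all lay above the basal libraries, and basal replicate 1 was well above the other basal libraries. The call was lost without 24 h replicate 1, 24 h replicate 2, basal replicate 2, basal replicate 3 or basal replicate 4 (adjusted p up to 0.229). In BALB the promoter had 79.2, 59.3 and 21.9 tags in the basal libraries and 307 and 394 tags at 24 h (log2 fold change 2.86, adjusted p = 0.00517), and in PWK 32.5, 84.6 and 122 tags in the basal libraries and 367, 296 and 419 tags at 24 h (log2 fold change 2.34, adjusted p = 0.00662). The BALB call was lost without 24 h replicate 1, 24 h replicate 2, basal replicate 2 or basal replicate 3 (adjusted p up to 0.742), and the PWK call lost without 24 h replicate 2, 24 h replicate 3 or basal replicate 2 (adjusted p up to 0.0889). NOD had 28.6 and 90.4 tags in the basal libraries and 385 and 489 tags at 24 h without passing the test (log2 fold change 3.06, adjusted p = 0.209). The SPRET basal libraries were already high, at 126, 236 and 355 tags, and those at 24 h had 430.1, 333 and 374 (log2 fold change 0.78, adjusted p = 0.332), so in this strain the groups overlapped.

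A region inside the gene, in an intron at +3.5 kb (chr4:19918574-19919574), followed the promoter. Pol II there was 104, 57.8, 43.4 and 44.6 tags in the basal libraries and 453, 281 and 212 tags at 24 h in C57 (log2 fold change 2.34, SE 0.38, adjusted p = 0.0162), a call lost without 24 h replicate 1, 24 h replicate 2, basal replicate 3 or basal replicate 4 (adjusted p up to 0.173). It passed in every strain but NOD, where it was 20.1 and 44.5 tags in the basal libraries and 348 and 323 tags at 24 h (log2 fold change 3.44, adjusted p = 0.105). In PWK it was 37.4, 47.6 and 65.2 tags in the basal libraries and 376, 249 and 238 tags at 24 h (log2 fold change 2.5, SE 0.28, adjusted p = 0.000527), and this call held without each of the 6 libraries, with adjusted p from 0.00219 to 0.0236. In SPRET it was 63.9, 112 and 105 tags in the basal libraries and 259, 215 and 218 tags at 24 h (log2 fold change 1.33, adjusted p = 0.0302), a call lost without 24 h replicate 1, 24 h replicate 2, 24 h replicate 3, basal replicate 1 or basal replicate 3 (adjusted p up to 0.155). In BALB the fold was 2.99 on the log2 scale (adjusted p = 0.00263), lost without 24 h replicate 1, basal replicate 2 or basal replicate 3 (adjusted p up to 0.726). The 24 h libraries lay above the basal libraries in all 5 strains, in SPRET by the least.

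H3K27ac and H3K4me3 at the Atp6v0d2 promoter were higher as well. H3K4me2 there depended on the scaling. With the library total it was not higher in SPRET, and 0 lysosome promoters had higher H3K4me2 in all 5 strains. With the median-ratio scaling it was higher in all 5 at this promoter. H3K27ac was 90.9 and 80.6 tags in the basal libraries and 361 and 297 tags at 24 h in C57 (log2 fold change 1.92, SE 0.34, adjusted p = 0.108), 32.4 and 69.9 tags in the basal libraries and 360.2 and 268 tags at 24 h in NOD, and 42.9 and 137 tags in the basal libraries and 312 and 272 tags at 24 h in PWK. BALB had 91.1 and 48.9 tags in the basal libraries and 377 and 179.6 tags at 24 h and SPRET 111 and 302 tags in the basal libraries and 564 and 359 tags at 24 h. In each strain both 24 h libraries were above both basal libraries, and in no strain did the region pass. H3K4me3 there was 25.7 and 67.4 tags in the basal libraries and 232 and 239 tags at 24 h in NOD (log2 fold change 2.47, SE 0.40, adjusted p = 0.0191), a call lost without any single one of the 4 libraries, and 45.1 and 55.6 tags in the basal libraries and 245 and 273 tags at 24 h in C57 (log2 fold change 2.35, adjusted p = 0.185). Atp6v0d2 was the only lysosome promoter with higher H3K27ac and higher H3K4me3 at 24 h in all 5 strains under the library-total scaling. It was 1 of 2 for H3K27ac under the median-ratio scaling, with Mitf.

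**Figure D2:**
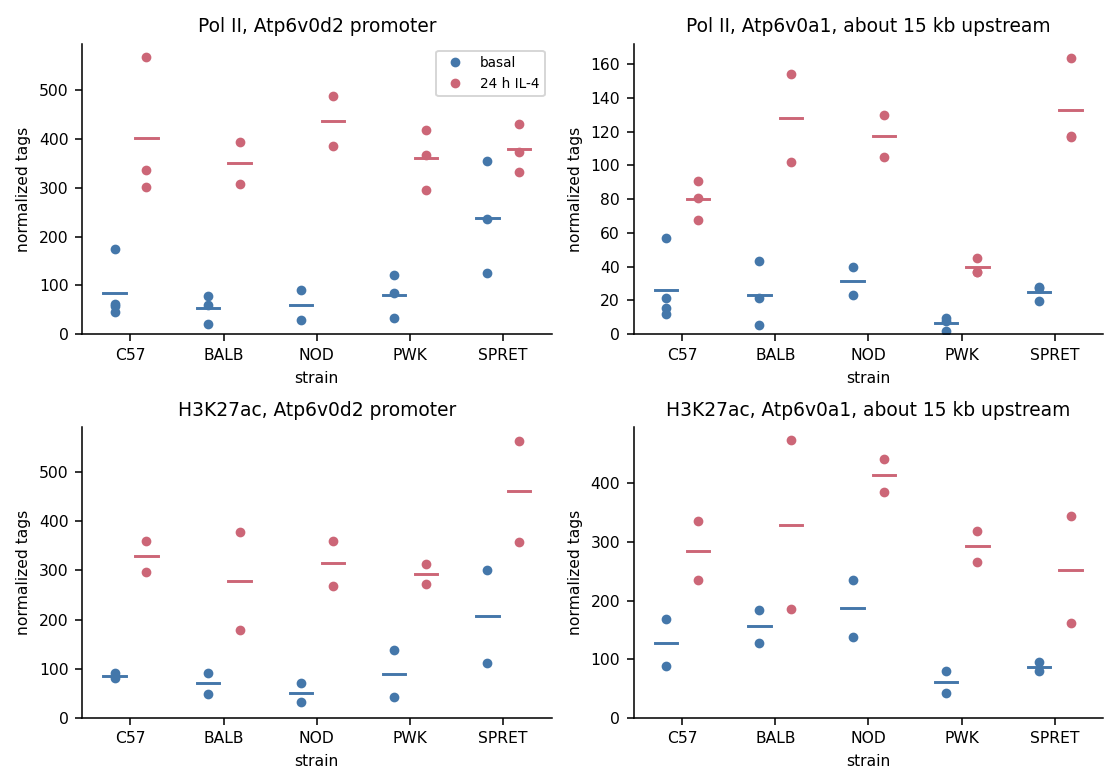
Normalized tags (y axes) of Pol II (top) and H3K27ac (bottom) in each library of the 5 strains (x axes), at the Atp6v0d2 promoter (left) and at the region about −15 kb from Atp6v0a1 (right). Blue points are basal libraries, red points 24 h libraries and bars are means; Pol II at the Atp6v0d2 promoter does not overlap between the groups in C57, BALB, NOD and PWK and overlaps in SPRET.

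Atp6v0a1 encodes the a1 form of the large V0 membrane subunit. Without the replicate block, all but 1 of its called regions lay away from the promoter. At −15.2 kb (chr11:100993783-100994783 in C57, outside the gene) Pol II was 11.9, 15.3, 56.8 and 21.3 tags in the basal libraries and 80.7, 67.8 and 91.1 tags at 24 h in C57 without passing (log2 fold change 1.82, SE 0.46, adjusted p = 0.113), and 21.7, 43.3 and 5.47 tags in the basal libraries and 102 and 154 tags at 24 h in BALB (log2 fold change 2.76, SE 0.65, adjusted p = 0.00726). The groups did not overlap in either strain. The BALB call was lost without 24 h replicate 1, 24 h replicate 2 or basal replicate 3 (adjusted p up to 0.83), and was also lost with the median-ratio scaling. BALB had a further Pol II call at −7.4 kb, which was lost with the median-ratio scaling (adjusted p = 0.557), edgeR, DESeq2 and the replicate block and lost without 24 h replicate 2, basal replicate 1 or basal replicate 3 (adjusted p up to 0.963). It had another within the promoter distance, at +0.7 kb (114, 272 and 62.4 tags in the basal libraries and 637 and 739 tags at 24 h, log2 fold change 2.45, adjusted p = 0.0328), lost without any single one of the 5 libraries. In SPRET, at about −15 kb, it was 27.1, 19.8 and 27.7 tags in the basal libraries and 164, 117 and 117 tags at 24 h (log2 fold change 2.37, SE 0.25, adjusted p = 0.00268), and this call held without each of the 6 libraries, with adjusted p from 0.009 to 0.0352. NOD had 23.4 and 39.7 tags in the basal libraries and 130.0 and 105 tags at 24 h (log2 fold change 1.91, adjusted p = 0.265).

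In PWK the nearest region stood at −14.6 kb, with Pol II at 2.12, 7.69 and 9.85 tags in the basal libraries and 45.3, 36.6 and 36.8 tags at 24 h (log2 fold change 2.60, adjusted p = 0.0109) and H3K27ac at 42.9 and 79.1 tags in the basal libraries and 319 and 265 tags at 24 h (log2 fold change 2.30, SE 0.48, adjusted p = 0.0417). A neighbour at −14.2 kb, which overlaps it, had H3K27ac at 30.9 and 47 tags in the basal libraries and 210.1 and 232 tags at 24 h (log2 fold change 2.5, adjusted p = 0.0214). Pol II and H3K27ac were higher in every 24 h library than in every basal one. The H3K27ac calls were lost without 24 h replicate 1, 24 h replicate 2 or basal replicate 1 (adjusted p up to 0.935) for both, and the one at −14.6 kb was also lost with the median-ratio scaling (adjusted p = 0.0643). The Pol II call was lost without 24 h replicate 2, 24 h replicate 3, basal replicate 2 or basal replicate 3 (adjusted p up to 0.128). SPRET had H3K27ac calls at sites that no other strain's table listed within 500 bp. At −18.2 kb H3K27ac was 10.3 and 25.7 tags in the basal libraries and 189.5 and 91.5 tags at 24 h (log2 fold change 2.94, SE 0.47, adjusted p = 0.00457) and in an intron at +1.8 kb it was 100.0 and 160.0 tags in the basal libraries and 1032 and 421 tags at 24 h (log2 fold change 2.37, adjusted p = 0.0103). The third call lay in an intron at +7.5 kb. The call at −18.2 kb was lost without 24 h replicate 1, 24 h replicate 2 or basal replicate 1 (adjusted p up to 0.364), and the calls at +1.8 and +7.5 kb without any single one of the 4. Pol II was higher at all 3 sites as well, with adjusted p of 0.0109, 0.01 and 0.00915, each lost without 24 h replicate 1 (adjusted p up to 0.0972). In C57 H3K27ac at −15.2 kb was 88.2 and 168 tags in the basal libraries and 234 and 335 tags at 24 h (log2 fold change 1.2, adjusted p = 0.183).

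At the Atp6v0a1 promoter itself Pol II was 279, 392, 466 and 418 tags in the basal libraries and 642, 615 and 687 tags at 24 h in C57 (log2 fold change 0.76, adjusted p = 0.442), with every 24 h library above every basal one. Its log2 fold change ran from 0.50 to 1.29 over the 5 strains, while that of H3K27ac ran from −0.44 to 0.25. Atp6v1a, the catalytic A subunit of the V1 part, had promoter Pol II of 237, 323, 300.1 and 227 tags in the basal libraries and 379, 299 and 271 tags at 24 h and H3K27ac of 863 and 626 tags in the basal libraries and 525 and 396 tags at 24 h in C57. Its Pol II groups overlapped, and the log2 fold change was −0.40 to 0.40 over the strains. The 14 distal regions of the pump in C57 lay at 3 genes and had a median Pol II log2 fold change of 0.62, with 14 of 14 above 0. The 193 distal lysosome regions had a median of 0.17, with 120 above 0.

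The cathepsins and related proteases digest protein in the lysosome. Without the replicate block, only Ctsd, which encodes the aspartic protease cathepsin D, had called regions of this group at 24 h in a strain. In SPRET Pol II at −2.3 kb was 254, 158 and 328 tags in the basal libraries and 83.7, 104 and 93.3 tags at 24 h (log2 fold change −1.33, SE 0.27, adjusted p = 0.0423), and at −15.8 kb it was 80.3, 46.4 and 70.9 tags in the basal libraries and 24.5, 24 and 14.8 tags at 24 h (log2 fold change −1.59, adjusted p = 0.0351). The 24 h libraries were all below the basal libraries at −2.3 kb. Both calls were lost without 24 h replicate 1, 24 h replicate 2, 24 h replicate 3, basal replicate 1 or basal replicate 3 (adjusted p up to 0.198), and the one at −2.3 kb was also lost with the median-ratio scaling (adjusted p = 0.059). In C57 the region at −2.5 kb (chr7:142389999-142390999, outside the gene) had H3K27ac of 721 and 959 tags in the basal libraries and 256 and 389 tags at 24 h (log2 fold change −1.40, adjusted p = 0.118).

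Promoters of the proteases did not pass in any strain. Ctsd promoter Pol II was 938, 883, 746 and 667 tags in the basal libraries and 573, 469 and 508 tags at 24 h in C57 (log2 fold change −0.64, adjusted p = 0.576), every 24 h library lying below every basal one, and its log2 fold change was −0.88 to −0.12 over the 5 strains. Ctsb, a cysteine protease, had H3K27ac of 790.4 and 632 tags in the basal libraries and 469 and 331 tags at 24 h and Pol II of 731, 925, 779 and 619 tags in the basal libraries and 946, 770.5 and 621 tags at 24 h, so H3K27ac did not overlap between groups while Pol II did. Ctss, which trims the invariant chain in antigen presentation, had Pol II of 489.8, 677, 430.4 and 389.9 tags in the basal libraries and 681, 608 and 432 tags at 24 h, and Ctsz, an exopeptidase, 325, 383, 224 and 131 tags in the basal libraries and 544, 405 and 217 tags at 24 h. Both overlapped between groups in C57, and their log2 fold changes were above 0 in every strain, 0.21 to 0.73 for Ctss and 0.40 to 0.96 for Ctsz. Ctsk, the collagen-degrading cathepsin of osteoclasts, had Pol II log2 fold changes of 0.14 to 1.34 in the 4 strains with a promoter region. Lgmn, the asparaginyl endopeptidase legumain, had H3K27ac of 410.4 and 372 tags in the basal libraries and 230.0 and 159 tags at 24 h (log2 fold change −1.03, adjusted p = 0.161). Tpp1, a tripeptidyl peptidase, had 147 and 231 tags in the basal libraries and 137 and 176 tags at 24 h, and Ctsl, a cysteine protease, 364 and 266 tags in the basal libraries and 267 and 170.0 tags at 24 h, each with overlapping groups.

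**Figure D3:**
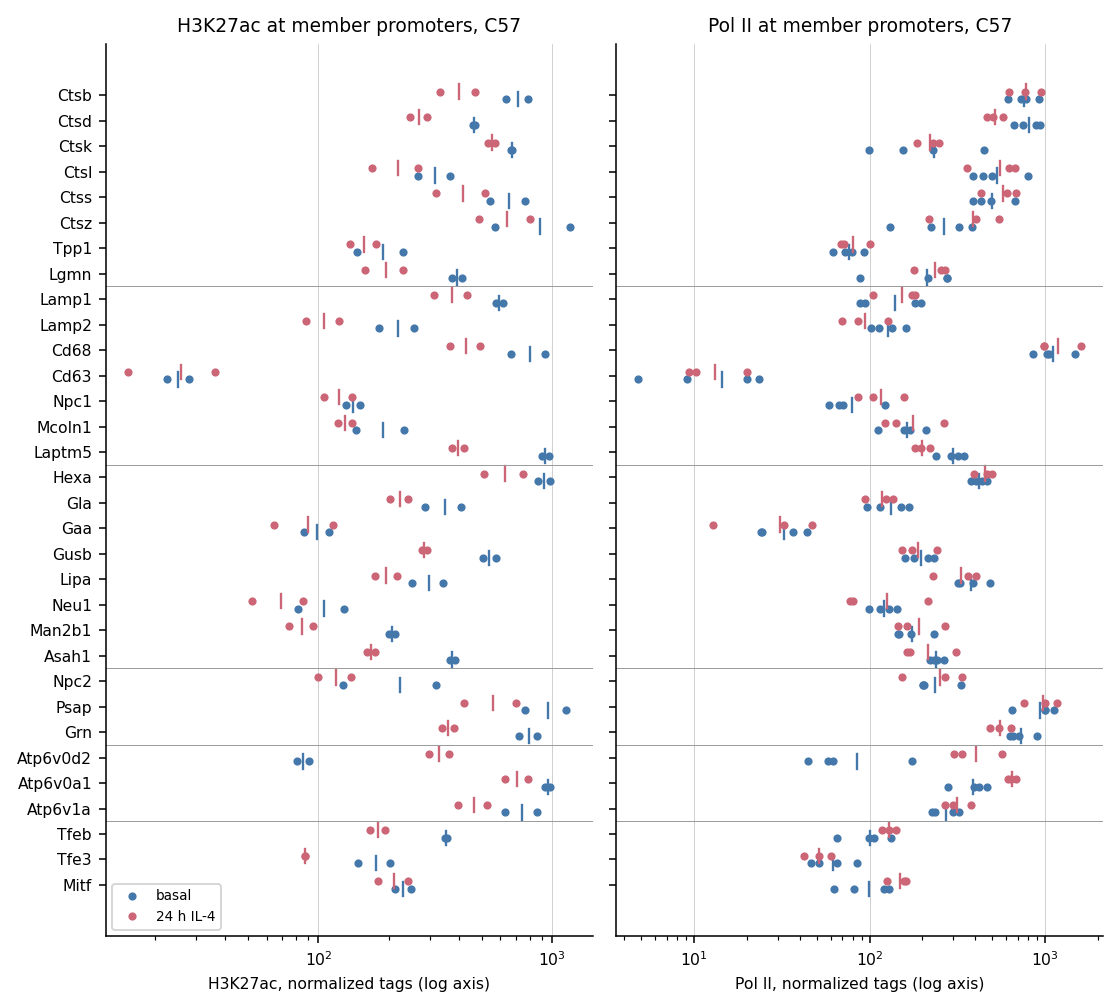
Normalized tags on log axes (x) of H3K27ac (left) and Pol II (right) at the promoter region of each of the 32 lysosome genes with one in C57 (y axis, grouped by role with grey lines). Blue points are basal libraries, red points 24 h libraries and short bars are means; H3K27ac is lower at 24 h at most promoters and higher at Atp6v0d2, and Pol II overlaps at most.

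The membrane proteins line the lysosome or carry cargo through its membrane. Promoter H3K27ac of Laptm5, a lysosomal membrane protein of blood cells, was 968 and 901 tags in the basal libraries and 373 and 417 tags at 24 h in C57 (log2 fold change −1.24, adjusted p = 0.117), and its log2 fold change ran from −1.24 to −0.68 over the strains. A distal Laptm5 region at −10.7 kb had 286 and 230.3 tags in the basal libraries and 75.6 and 67.6 tags at 24 h (log2 fold change −1.83, adjusted p = 0.112). The groups did not overlap at either, and neither passed. Cd68, the scavenger receptor used as a macrophage marker, had the most promoter Pol II of the set in every strain. In C57 it was 1028, 1487, 1052 and 853 tags in the basal libraries and 1605, 983 and 985 tags at 24 h with overlapping groups, and its H3K27ac was 930.1 and 669.6 tags in the basal libraries and 491 and 364 tags at 24 h. Cd63, a tetraspanin, stood at the other end, with H3K27ac of 22.4 and 27.8 tags in the basal libraries and 15.3 and 36.1 tags at 24 h.

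Lamp2, a major glycoprotein of the lysosomal membrane, had a distal region that went the other way from its promoter. At −9.7 kb (chrX:38465688-38466688, outside the gene, and holding the shown EGR2 site) H3K27ac was 43.4 and 25.7 tags in the basal libraries and 103 and 107 tags at 24 h in C57 (log2 fold change 1.62, adjusted p = 0.134). The promoter had 256 and 182 tags in the basal libraries and 122 and 88.6 tags at 24 h (log2 fold change −1.05, adjusted p = 0.186). Matched regions had 16.6 and 32.5 tags in the basal libraries and 73.1 and 86.1 tags at 24 h in NOD, 30.9 and 67.3 tags in the basal libraries and 101 and 119 tags at 24 h in PWK and 64.1 and 70.5 tags in the basal libraries and 163 and 109.8 tags at 24 h in SPRET. In all 5 strains both 24 h libraries were above both basal libraries at the distal region, with log2 fold changes of 0.98 to 1.72, and none passed. Lamp1, its paralogue, had promoter H3K27ac of 573 and 615 tags in the basal libraries and 431 and 312 tags at 24 h, Mcoln1, a calcium channel of the lysosome, 231 and 145 tags in the basal libraries and 139 and 121 tags at 24 h, and Npc1, which exports cholesterol, 151 and 131 tags in the basal libraries and 139 and 106 tags at 24 h. At Mcoln1 the groups did not overlap, and at Npc1 they did.

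The glycosidases and lipid enzymes break down sugar chains and lipids. Their promoters had a median H3K27ac log2 fold change of −0.67 in C57, with 0 of 12 regions above 0, and a median Pol II log2 fold change of −0.16. With the median-ratio scaling the H3K27ac median was −0.327, with 2 of 12 above 0. Gusb, the beta-glucuronidase often used to assay lysosomal release, had H3K27ac of 504 and 573 tags in the basal libraries and 290.3 and 276 tags at 24 h (log2 fold change −0.92, adjusted p = 0.153), with no overlap. Hexa, a hexosaminidase subunit, had 976 and 869 tags in the basal libraries and 748 and 509.9 tags at 24 h, Lipa, the lysosomal acid lipase, 339.9 and 252 tags in the basal libraries and 216 and 174 tags at 24 h, Gla, an alpha-galactosidase, 407 and 287 tags in the basal libraries and 242 and 203 tags at 24 h, and Gaa, which degrades glycogen, 111 and 86.3 tags in the basal libraries and 115 and 64.3 tags at 24 h. Only at Gaa did the groups overlap. Of 212 lysosome regions with at least 16 H3K27ac tags in either group in C57, 114 were lower and 17 higher without overlap. The share of all regions without overlap was not counted in the strain comparisons. Lack of overlap there is thus not shown to be particular to these or other lysosome genes. Promoter H3K27ac of Man2b1, a mannosidase, Neu1, a sialidase, and Asah1, the acid ceramidase, had log2 fold changes below 0 in each of the 5 strains under both scalings, from −1.42 to −0.26, −0.62 to −0.22 and −1.15 to −0.32 with the library total.

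Among the soluble helper proteins, Psap encodes the precursor of the saposins, which help lipid enzymes. Its promoter had H3K27ac of 1144 and 767 tags in the basal libraries and 699 and 419 tags at 24 h and Pol II of 1002, 994, 1120.1 and 647 tags in the basal libraries and 1174, 994 and 759 tags at 24 h in C57. The H3K27ac groups did not overlap and the Pol II groups did. Its Pol II log2 fold change was 0.06 to 0.87 over the strains. Grn, the precursor of granulins, had H3K27ac of 864 and 722 tags in the basal libraries and 379 and 336 tags at 24 h (log2 fold change −1.14, adjusted p = 0.122) and Pol II of 634, 900.3, 712 and 659 tags in the basal libraries and 546, 640.3 and 485 tags at 24 h, without overlap for H3K27ac and with 24 h replicate 2 inside the basal range for Pol II. Npc2, which hands cholesterol to NPC1, had Pol II of 204, 331, 203 and 201 tags in the basal libraries and 268, 335 and 153 tags at 24 h, with basal replicate 2 well above the other basal libraries. The 47 distal regions of this group lay at 3 genes and had a median Pol II log2 fold change of 0.58 in C57, with 37 above 0. Of all 193 distal lysosome regions 120 were above 0, with a median of 0.17, and the median over all regions was −0.03. In BALB, NOD, PWK and SPRET the group's medians were 0.56, 0.29, 0.09 and 0.63.

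The transcription factors bind the CLEAR element. Tfeb promoter H3K27ac was 355 and 348 tags in the basal libraries and 192 and 167 tags at 24 h (log2 fold change −0.97, adjusted p = 0.157), and that of Tfe3 was 148 and 203 tags in the basal libraries and 87.4 and 88 tags at 24 h. Neither group pair overlapped. Pol II was 65.5, 132, 107 and 99.2 tags in the basal libraries and 129, 117 and 142 tags at 24 h at Tfeb and 63, 121, 81.5 and 129.6 tags in the basal libraries and 158, 161 and 126 tags at 24 h at Mitf, overlapping at both, and the Mitf log2 fold change was above 0 in all 5 strains (0.03 to 0.92). Of the acid phosphatases, Acp2 and Acp5 had no promoter region in C57. The intronic region of Acp5, the tartrate-resistant phosphatase of osteoclasts and macrophages, at +6.8 kb had H3K27ac of 2.04 and 3.57 tags in the basal libraries and 9.34 and 14.4 tags at 24 h in C57, 0.83 and 6.35 tags in the basal libraries and 9.4 and 25.3 tags at 24 h in NOD and 29.2 and 40.7 tags in the basal libraries and 80.1 and 66.8 tags at 24 h in PWK. The 24 h values were higher in each library, and no region lay there in SPRET.

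Over the 28 genes with a promoter region in all 5 strains, H3K27ac was lower at 24 h in all 5 strains at 20 promoters and higher in all 5 at 1, Atp6v0d2. With the median-ratio scaling these counts were 12 and 2. The 12 were Asah1, Atp6v1a, Cd68, Ctsb, Ctsd, Gla, Grn, Gusb, Laptm5, Lgmn, Man2b1 and Neu1. Atp6v0d2 was higher in all 5 strains under both scalings. Pol II was higher in all 5 strains at 7 promoters under both scalings, Atp6v0a1, Atp6v0d2, Cd68, Ctss, Ctsz, Mitf and Psap, and lower in all 5 at Ctsd, Grn and Laptm5 under both, joined by Asah1 and Tfe3 with the median-ratio scaling. H3K27ac and Pol II thus had opposite signs in all strains at Cd68 under both scalings. H3K4me2 was lower at 24 promoters and H3K4me3 at 19 in all strains, and with the median-ratio scaling at 4 and 5. The same counts over all promoters were not made, so none of these is shown to be particular to lysosome genes. Over all regions past the tag minimum, the median limma log2 fold change of H3K27ac was −0.617 to −0.155 across the strains. That of H3K4me2 was −0.785 to −0.200.

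H3K4me2 and H3K4me3 gave 1 call at the lysosome genes, the Atp6v0d2 promoter in NOD. For H3K4me2 the shares of all regions that passed were 0.236% in C57, 0.0111% in BALB, 0.189% in NOD, 0.314% in PWK and 0% in SPRET. No lysosome region passed, with unadjusted p under 0.05 at 97, 5, 16, 4 and 77 regions, and 3 were called by edgeR over the 5 strains. DESeq2 called 0. Without 24 h replicate 1 the count was 160 in C57, 124 in BALB and 4 in SPRET, all lower. Without basal replicate 1 it was 71 lower and 3 higher in NOD and 18 lower in SPRET, and without basal replicate 2 it was 2 higher in NOD. H3K4me2 was also lower over all regions, with median log2 fold changes of −0.69 in C57 and −0.48 in SPRET. These counts thus cannot be read as a trait of lysosome genes. For H3K4me3 the shares were 0% in C57, BALB and SPRET, 0.0203% in NOD and 0.0349% in PWK. Outside NOD the unadjusted p was under 0.05 at 51 lysosome regions in C57, 15 in BALB, 11 in PWK and 20 in SPRET. DESeq2 called 8 lysosome regions and edgeR 13 over the 5 strains.

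A description by size alone, at least 2.5-fold between group means plus 1 with at least 16 tags (8 for Pol II) in either group, picked few lysosome regions. For H3K27ac 4 were higher and 7 lower in C57, where 3.46% and 7.55% of all regions met the rule. The higher ones lay at Atp6v0d2, Ctsl, Lamp2 and Psap and the lower ones at Acp2, Ctsd, Lamp2 and Laptm5. The counts were 4 and 3 in BALB (2.84% and 5.13%), 5 and 1 in NOD (3.24% and 5.14%), 4 and 2 in PWK (3.10% and 3.01%), and 5 and 1 in SPRET (2.64% and 0.939%). For Pol II they were 5 and 2 in C57 (1.57% and 1.66%), 11 and 0 in BALB (5.91% and 0.929%), and 9 and 0 in NOD (2.35% and 1.25%). In PWK they were 5 and 1 (2.66% and 0.932%) and in SPRET 4 and 2 (1.54% and 0.805%). The higher Pol II regions were those of Atp6v0d2 and Atp6v0a1 but for 5, at Lamp2 (C57 and NOD), Acp5 (NOD), Ctsl and Ctss (BALB).

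A list of 50 other lysosome genes was measured by the same rule. In C57 its 190 regions had a median H3K27ac log2 fold change of −0.48 with 0 calls, and a Pol II median of 0.00 with 1 higher and 1 lower. H3K27ac calls in the other strains numbered 1, higher, in BALB and 0 in NOD, PWK and SPRET. Pol II calls numbered 0 in BALB and NOD, 2 lower in PWK, and 12 higher in SPRET. None of these Pol II calls lay at a promoter. Unadjusted p was under 0.05 at 44 of the H3K27ac regions in C57, 10 in NOD, 9 in PWK and 10 in SPRET, and for Pol II at 10 in BALB and 15 in NOD. The list's H3K27ac medians in BALB, NOD, PWK and SPRET were −0.39, −0.23, −0.25 and −0.07, and its Pol II medians 0.42, 0.01, −0.09 and −0.12.

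The C57 time course asked when the differences arose. It was counted over its own region set and used the same C57 basal and 24 h libraries as the strain comparison, so its 24 h values are not a second measurement. At 1 h H3K27ac was lower at 45 of 265 lysosome regions and higher at 0, where 8.36% of all regions were lower and 1.37% higher. The median log2 fold change was −1.21 at lysosome regions and −0.63 over all, and over regions past the tag minimum, compared by group means, −1.25 and −1.07. The share of tags within the regions was 20.5% and 44.0% in the 1 h libraries, 50.2 to 51.0% at 6 h, 41.2 to 46.4% at 24 h and 63.8 to 69.7% in the basal libraries, and the part of this in the result was not tested. With the median-ratio scaling, which moved the median over all regions by more than 0.1, 13 were lower, and the medians were −0.41 and 0.09. The count was 0 with basal replicate 2 left out, 9 with 6 h replicate 1 or 6 h replicate 2 left out, 14 with basal replicate 1 left out and 171 with 1 h replicate 1 left out. DESeq2 called 28 regions and edgeR 10.

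At 6 h 2 lysosome regions were higher and 2 lower (2.67% and 2.46% of all regions). Acp5 at +6.8 kb had 2.04 and 3.57 tags in the basal libraries, 9.28 and 4.47 at 1 h, 18.5 and 32.9 at 6 h and 9.34 and 14.4 at 24 h (log2 fold change 2.78, SE 0.62, adjusted p = 0.0154 at 6 h). It was highest at 6 h. Ctsl at −12 kb had 12.2 and 9.27 at basal, then 11.6 and 7.57 at 1 h, 30.8 and 79.7 at 6 h and 48.4 and 31.5 at 24 h (log2 fold change 2.12, adjusted p = 0.0474 at 6 h). The intronic Atp6v0d2 region at +24.4 kb went the other way from the promoter, with 352 and 524 at basal, then 58 and 90.5 at 1 h, 90.9 and 56 at 6 h and 85.7 and 122 at 24 h (log2 fold change −2.57, SE 0.56, adjusted p = 0.0136 at 6 h). Laptm5 at −10.7 kb had 290.4 and 229.6 at basal, then 58.8 and 68.2 at 1 h, 73.2 and 69.4 at 6 h and 76.4 and 69.6 at 24 h (log2 fold change −1.84, adjusted p = 0.0484 at 6 h). Both lower regions were already low at 1 h, and the 6 h libraries did not overlap the basal ones at any of the 4. The Acp5 call was lost without 6 h replicate 1 or 6 h replicate 2 (adjusted p up to 0.198). The 6 h count was 0 with 6 h replicate 1 or 6 h replicate 2 left out, 2 with basal replicate 2 left out and 18 with 1 h replicate 1 or 1 h replicate 2 left out. At 24 h 1 lysosome region was lower, Laptm5 at −13.6 kb (log2 fold change −2.34, adjusted p = 0.0466), where 1.45% of all regions passed, and the count was 0 with 24 h replicate 1, 24 h replicate 2, 6 h replicate 1, 6 h replicate 2, basal replicate 1 or basal replicate 2 left out, 10 with 1 h replicate 2 left out and 11 with 1 h replicate 1 left out.

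Pol II at the Atp6v0d2 promoter had 172, 57.8, 62.2 and 43.5 tags in the basal libraries, 230.0 in the single 1 h library, 367 and 517 at 6 h (log2 fold change 2.58, SE 0.48, adjusted p = 0.0234) and 564, 299 and 332 at 24 h. At +3.5 kb it had 104, 57.8, 44.5 and 45.6 at basal, then 183 at 1 h, 319.8 and 437 at 6 h (log2 fold change 2.64, adjusted p = 0.0106) and 455, 285 and 212 at 24 h. All libraries at 6 h and 24 h lay above all basal libraries at both regions. The Ctsd region at −5.3 kb had 204, 156, 243 and 187 at basal, then 31 at 1 h, 40 and 52.2 at 6 h (log2 fold change −2.07, SE 0.44, adjusted p = 0.0409 at 6 h) and 70.7, 34.1 and 118 at 24 h, with every treated library below every basal one. At −15.2 kb from Atp6v0a1 Pol II was 11.9, 15.3, 54.1 and 21.3 at basal, then 93.4 at 1 h, 106 and 71.7 at 6 h and 83.4, 66.9 and 88.5 at 24 h, without passing at any time. In all, 0 lysosome regions passed at 1 h (0.0911% of all regions), with unadjusted p under 0.05 at 51, 2 were higher and 1 lower at 6 h (0.566%), and 2 were higher at 24 h (0.677%). With the replicate block the 5 calls became 31, 11 higher and 20 lower, and DESeq2 gave 32 and edgeR 8. The 31 pool all times, though same-numbered basal and 6 h libraries were not taken as paired (r = 0.0709 to 0.254). No share of all regions is given beside these counts. Leaving out libraries, the 5 became 2 with 24 h replicate 1, 6 h replicate 1, 6 h replicate 2 or basal replicate 4 left out, 3 with basal replicate 2 left out, 8 with 24 h replicate 3 left out and 16 with basal replicate 1 left out.

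EGR2, the zinc finger factor induced by IL-4, was measured by tags at 130 lysosome sites in C57. No site of any gene passed at 1 h (0%), 6 h (0%) or 24 h (0%), and unadjusted p was under 0.05 at 4, 5 and 4 lysosome sites. DESeq2 called 3 lysosome sites over the 3 times and edgeR 0. Both 24 h libraries were above both basal libraries at 77 of the 130 sites, beside 54.6% of all sites. The median log2 fold change at 24 h was 0.65 at lysosome sites and 0.66 over all sites, and with the median-ratio scaling 0.01 and 0.02. Without 1 h replicate 2 the count of calls was 17, and it was 2 without 1 h replicate 1 or either 6 h library.

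The Atp6v0a1 site at −15.1 kb, shown above with its 3 STAT6-type sites, had 23 and 10.7 EGR2 tags in the basal libraries, 25.3 and 174 at 1 h, 55.9 and 326 at 6 h and 142 and 240.0 at 24 h (log2 fold change 3.47, SE 0.86, adjusted p = 0.556 at 24 h). Every treated library was above the basal ones, and the replicates at 1 h were far apart. A site in the gene at +9.6 kb had 5.62 and 4.03 at basal, then 10.8 and 14.5 at 1 h, 15.7 and 20.9 at 6 h and 33.7 and 16.3 at 24 h. Tfeb at +2.3 kb had 7.02 and 2.69 at basal, then 8.13 and 11.6 at 1 h, 45.4 and 18.8 at 6 h and 27.4 and 17.3 at 24 h. All treated libraries were above the basal ones at these 2 sites too. Lamp2 at −9.7 kb had 21.1 and 17.5 at basal, then 12.6 and 27 at 1 h, 27.9 and 69.3 at 6 h and 60.6 and 57.6 at 24 h. The Ctsd promoter, by contrast, had high tags from the start, 451 and 492, and 942 and 416 at 24 h, with overlapping groups.

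**Figure D4:**
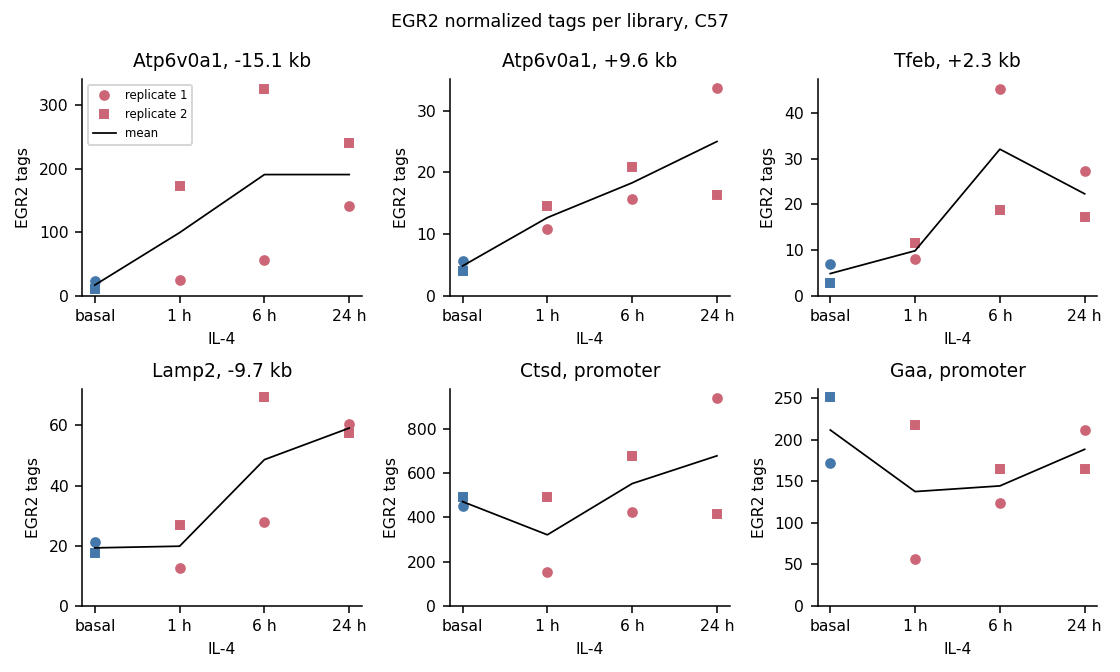
EGR2 normalized tags (y axes) in each C57 library at basal, 1 h, 6 h and 24 h of IL-4 (x axes) at 6 lysosome sites. Circles and squares are replicates 1 and 2 and lines join the means; tags at the upper 3 sites and at Lamp2 are higher at 24 h than at basal in both libraries, and the Ctsd and Gaa promoters overlap.

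EGR2 peaks were called by the authors for each group and strain. Near lysosome genes C57 had 50 peaks at basal and 125 at 24 h, of which 75 overlapped no basal peak, or 60.0%, beside 72.5% of all 24 h peaks. BALB had 105 and 121 with 32 new, beside 36.3% of all, and NOD 99 and 74 with 7 new, beside 11.1%. PWK had 22 and 58 with 37 new (67.3%), and SPRET 55 and 116 with 69 new (72.6%). Of 175 positions with a 24 h peak in any strain, 41 had one in all 5 strains and 62 in 1. Positions at which the 24 h peak had no basal peak beneath it in 4 strains were Ctsb at +9.5 kb, Acp5 at +6.9 kb, Ctss at −5.4 kb and Ctsz at +2.0 kb, and at no position was this so in all 5. The number of peaks depends on the depth and the signal of each library as well as on binding.

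Peaks of other factors in C57 were counted in the same way. STAT6 had 150 peaks near lysosome genes at basal and 188 at 24 h, 64 of them new (41.2% of all 24 h peaks were). PPARγ, a nuclear receptor, had 35 and 123 with 92 new (84.0%), C/EBPβ 78 and 134 with 56 new (53.8%), and PU.1, the macrophage lineage factor, 233 and 263 with 51 new (18.9%). By gene, Psap had the most PU.1 (22), C/EBPβ (11), PPARγ (11) and EGR2 (13) peaks at 24 h in C57, and for STAT6 Psap and Ctsb had 20 each. Mcoln1 had 0 to 1 of each factor and Gla 0 to 2.

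The last comparison asked how marks and factors at EGR2 sites differed between genotypes. The sites were chosen by the authors as EGR2 peaks induced by 24 h of IL-4, so none is a random sample of lysosome regions, and the 22 sites lay at 17 of the 35 genes. At 24 h H3K27ac was lower in LyzM-Cre Egr2 fl/fl than in Egr2 fl/fl at 7 sites and higher at 0, beside 23.2% of all sites lower and 1.41% higher. The split turned with scaling. With the median-ratio scaling, which moved the median over all sites from −0.50 to −0.03, 1 lysosome site was lower and 4 were higher, edgeR gave 1 lower and 4 higher, and DESeq2 1 and 3. Tfeb at +2.3 kb was the lower site each time.

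At that Tfeb site, which lies within the gene over a UTR, H3K27ac at 24 h was 143 and 189 tags in Egr2 fl/fl and 36.4 and 60.9 in LyzM-Cre Egr2 fl/fl (log2 fold change −1.78, SE 0.27, adjusted p = 0.000374). It was 95.4 and 127 against 87.3 and 105 at basal. The genotypes did not overlap at 24 h and overlapped at basal. With the median-ratio scaling the log2 difference was −1.25 (adjusted p = 0.00456), and the call held without each of the 8 libraries, with adjusted p from 0.000132 to 0.0177. Psap at −24.0 kb had 354 and 351 against 170.4 and 194 (log2 fold change −0.95, adjusted p = 0.00204), also held without each library but not under the median-ratio scaling (adjusted p = 0.0889), and at basal 268 and 240.3 against 218 and 224. Laptm5 at +9.0 kb had 129 and 120.1 against 41.6 and 67.3 (log2 fold change −1.22, adjusted p = 0.00451), and Lamp2 at −9.7 kb 87.4 and 90.6 against 45.7 and 31.9 (log2 fold change −1.2, adjusted p = 0.0118). At basal Laptm5 had 75.8 and 60.4 against 36.1 and 46.5 (log2 fold change −0.71, adjusted p = 0.296) and Lamp2 29 and 23.1 against 9.03 and 13.5 (log2 fold change −1.16, adjusted p = 0.131). At Psap, Laptm5 and Lamp2 the basal libraries of LyzM-Cre Egr2 fl/fl thus also lay below those of Egr2 fl/fl, without passing. The Laptm5 call was lost without Egr2 fl/fl 24 h replicate 1 or LyzM-Cre Egr2 fl/fl 24 h replicate 1 (adjusted p up to 0.0637), and the Lamp2 call lost without Egr2 fl/fl 24 h replicate 1, Egr2 fl/fl 24 h replicate 2 or LyzM-Cre Egr2 fl/fl 24 h replicate 2 (adjusted p up to 0.0902). The others were Gusb at +7.9 kb, Gaa at +2.2 kb and Atp6v0a1 at +9.6 kb, and apart from Tfeb none of the 7 passed with the median-ratio scaling.

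Atp6v0a1 gave different results at its 2 distant sites. At +9.6 kb H3K4me2 at 24 h was 40.8 and 59.2 tags in Egr2 fl/fl and 6.5 and 13.9 in LyzM-Cre Egr2 fl/fl (log2 fold change −2.25, SE 0.47, adjusted p = 0.000197), and 9.01 and 3.77 against 2.82 and 5.25 at basal. H3K27ac there was 21.1 and 24.4 against 4.16 and 11.6 (log2 fold change −1.55, adjusted p = 0.0394), and 13.6 and 8.15 against 5.01 and 2.8 at basal (log2 fold change −1.28, adjusted p = 0.331). The genotypes did not overlap for either mark at 24 h, nor for H3K27ac at basal. The difference in H3K27ac response between genotypes was −0.28 on the log2 scale (adjusted p = 0.923). The H3K27ac call was lost without Egr2 fl/fl 24 h replicate 1, Egr2 fl/fl 24 h replicate 2 or LyzM-Cre Egr2 fl/fl 24 h replicate 1 (adjusted p up to 0.305). At −15.1 kb, where EGR2 tags were higher, H3K27ac was 242 and 272 in Egr2 fl/fl and 287 and 253 in LyzM-Cre Egr2 fl/fl (log2 fold change 0.07, adjusted p = 0.835), so the genotypes overlapped, and with the median-ratio scaling it was among the higher sites. H3K4me2 was lower at 2 lysosome sites in all, the second being Gaa at +2.2 kb (35.4 and 28.8 against 9.38 and 10.8, log2 fold change −1.58, adjusted p = 0.00571), beside 8.94% of all sites. With the median-ratio scaling both passed. Without Egr2 fl/fl 24 h replicate 2 the Atp6v0a1 difference of H3K4me2 had an adjusted p of 0.0566, and the Gaa call was lost without Egr2 fl/fl 24 h replicate 1 or LyzM-Cre Egr2 fl/fl 24 h replicate 1 (adjusted p up to 0.124).

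**Figure D5:**
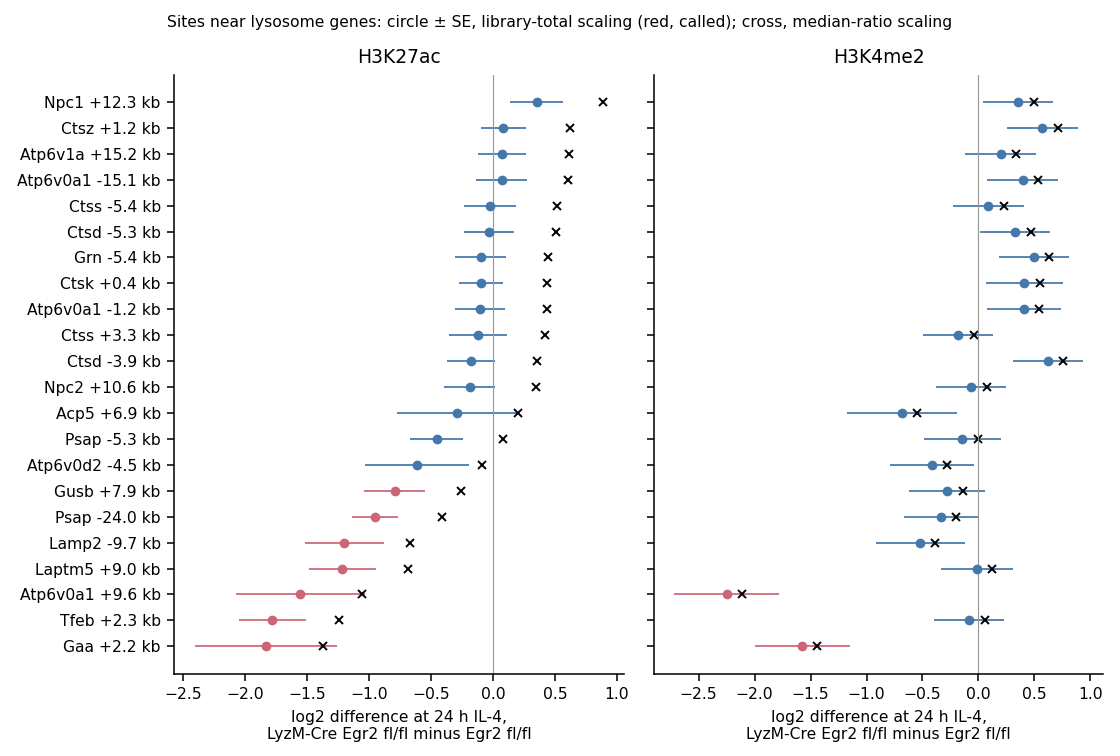
Log2 difference at 24 h of IL-4 between LyzM-Cre Egr2 fl/fl and Egr2 fl/fl (x axes) of H3K27ac (left) and H3K4me2 (right) at the 22 sites near lysosome genes (y axis). Circles with bars are the difference and its SE with the library-total scaling, red where adjusted p is under 0.05, and crosses are the median-ratio scaling; the H3K27ac crosses lie about 0.5 to the right of the circles, and Tfeb at +2.3 kb stays below −1 under both.

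Among the factors, C/EBPβ tags were lower at 24 h in LyzM-Cre Egr2 fl/fl at 3 lysosome sites, beside 8.25% of all sites. Psap at −24.0 kb had 40.5 and 26 against 6.78 and 0 (adjusted p = 0.0183), and Psap at −5.3 kb 20 and 17.1 against 0.68 and 1.07 (adjusted p = 0.0253). Tfeb at +2.3 kb had 5.44 and 10.6 tags in Egr2 fl/fl and 0 in both LyzM-Cre Egr2 fl/fl libraries (adjusted p = 0.0237). None of the 3 passed with the median-ratio scaling or with edgeR (adjusted p from 0.11 to 0.225), and DESeq2 gave them no adjusted p. The split turned, since edgeR and DESeq2 both called 0 lower and 2 higher, Atp6v0a1 at −1.2 kb (edgeR log2 fold change 1.21, adjusted p = 0.0334) and Ctsz at +1.2 kb (1.3, adjusted p = 0.0263), where limma gave log2 fold changes of 0.10 and 0.19 without passing. Each of the 3 lower calls was lost without Egr2 fl/fl 24 h replicate 1, Egr2 fl/fl 24 h replicate 2 or LyzM-Cre Egr2 fl/fl 24 h replicate 2 (adjusted p up to 0.416). STAT6 had 0 calls at lysosome sites (0.0214% of all sites), PPARγ 0 (0%) and PU.1 0 (9.45%), with unadjusted p under 0.05 at 4, 6 and 3 sites. At basal and for the difference in response between genotypes no lysosome site passed for any mark or factor, with unadjusted p under 0.05 at 0 to 3 sites each.

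Within Egr2 fl/fl, 3 lysosome sites had higher H3K27ac at 24 h than at basal and 1 lower, beside 25.6% and 2.54% of all sites. With the median-ratio scaling, which moved the median over all sites from 0.50 to 0.05, the balance turned to 2 higher and 5 lower. Within LyzM-Cre Egr2 fl/fl 3 were higher and 2 lower (14.4% and 4.08%), and 3 and 4 with that scaling. Atp6v0a1 at −15.1 kb had 102 and 97.7 tags at basal and 242 and 272 at 24 h (log2 fold change 1.35, SE 0.21, adjusted p = 0.000157), and in LyzM-Cre Egr2 fl/fl 74.2 and 91.9 at basal and 287 and 253 at 24 h (log2 fold change 1.69, adjusted p = 1.78e-05). It rose in both genotypes. Lamp2 at −9.7 kb had 29 and 23.1 at basal and 87.4 and 90.6 at 24 h (log2 fold change 1.74, adjusted p = 0.000679), and in LyzM-Cre Egr2 fl/fl 9.03 and 13.5 at basal and 45.7 and 31.9 at 24 h (log2 fold change 1.70, adjusted p = 0.000925). The third was Laptm5 at +9.0 kb (75.8 and 60.4 at basal and 129 and 120.1 at 24 h, log2 fold change 0.87, adjusted p = 0.0255), which did not pass with the median-ratio scaling, and the lower site was Ctsd at −3.9 kb (466 and 582 at basal and 287 and 339 at 24 h, log2 fold change −0.74, adjusted p = 0.00901). The calls at Atp6v0a1 and Lamp2 held without each of the 8 libraries, while the Laptm5 call was lost without Egr2 fl/fl 24 h replicate 1, Egr2 fl/fl 24 h replicate 2 or Egr2 fl/fl basal replicate 2 (adjusted p up to 0.176) and the Ctsd call lost without Egr2 fl/fl 24 h replicate 1 or Egr2 fl/fl basal replicate 2 (adjusted p up to 0.115). In LyzM-Cre Egr2 fl/fl Ctsd at −3.9 kb was also lower (log2 fold change −1.04, adjusted p = 0.000879), as was Tfeb at +2.3 kb (log2 fold change −1.01, adjusted p = 0.0141), and the third higher site was Atp6v0a1 at −1.2 kb (log2 fold change 0.75, adjusted p = 0.0145). There the calls at Atp6v0a1 −15.1 kb, Lamp2 and Ctsd held without each of the 8 libraries, while the Tfeb call was lost without LyzM-Cre Egr2 fl/fl 24 h replicate 1 or LyzM-Cre Egr2 fl/fl basal replicate 2 (adjusted p up to 0.193). The Atp6v0a1 call at −1.2 kb was lost without LyzM-Cre Egr2 fl/fl 24 h replicate 2 or LyzM-Cre Egr2 fl/fl basal replicate 1 (adjusted p up to 0.148).

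Factor tags at the same Atp6v0a1 site were also higher with IL-4, STAT6 in Egr2 fl/fl and PU.1 in both genotypes. STAT6 had 4.12 and 1.2 tags at basal and 39.8 and 68.2 at 24 h (log2 fold change 3.99, SE 0.63, adjusted p = 0.000169), and in LyzM-Cre Egr2 fl/fl 5.57 and 1.84 at basal and 22.7 and 15.8 at 24 h. The 24 h libraries of both genotypes were above the basal ones, and those of Egr2 fl/fl were the highest. The call held without each of the 8 libraries. PU.1 had 23.8 and 23 at basal and 83.1 and 84.1 at 24 h there (log2 fold change 1.80, adjusted p = 0.00104). In LyzM-Cre Egr2 fl/fl PU.1 had 14.5 and 8.13 at basal and 79.1 and 63.6 at 24 h (log2 fold change 2.60, adjusted p = 5.66e-05). It was the only PU.1 call of that genotype at a lysosome site (2.80% of all sites were higher), and it held without each of the 8 libraries. At +9.6 kb Egr2 fl/fl had 17.9 and 7.82 at basal and 48.8 and 36.5 at 24 h (log2 fold change 1.74, adjusted p = 0.0133). The 2 sites were the only PU.1 calls at lysosome sites in Egr2 fl/fl, both lost without Egr2 fl/fl 24 h replicate 1 or 2 (adjusted p up to 0.262), beside 8.19% of all sites. STAT6 was higher at 4 lysosome sites (11.8% of all), the others being Ctsk at +0.4 kb, Ctsz at +1.2 kb and Npc1 at +12.3 kb, and of the 4 only Atp6v0a1 also passed with the median-ratio scaling. H3K4me2 was higher at 2 sites (8.06% of all), Atp6v0a1 at +9.6 kb (log2 fold change 2.86, SE 0.47, adjusted p = 1.24e-06) and Acp5 at +6.9 kb (log2 fold change 1.92, adjusted p = 0.00341), of which Acp5 did not pass with the median-ratio scaling. That scaling gave 1 higher and 2 lower H3K4me2 sites.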

How the data were processed

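The authors aligned reads with Bowtie2 to each strain's genome, shifted the positions to mm10 with MMARGE and built HOMER tag directories. The deposited signal tables give normalized tags per region, scaled by the authors to 10000000 reads per library, in windows of 1000 bp around open-chromatin peaks (histone marks and Pol II) or 300 bp (factors at genotype sites). The deposited peak lists carry a score per peak and were called by the authors with HOMER and filtered by agreement of replicates, 1 list per group. Of 267 samples, 155 libraries in 9 tables and 54 peak lists were used, and 4 columns matching no sample were left out. Library totals were those deposited with the values. Turning tags back into reads with these totals gave whole reads (within 0.1) for 100% of 7268918 values.

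Each table was fitted with limma 3.58.1 (R 4.3.3, trend) on log2 of tags plus a pseudocount of 1 over all regions, with Benjamini-Hochberg adjusted p under 0.05. edgeR 4.0.16 (quasi-likelihood) and DESeq2 1.42.0 on the recovered reads, a pseudocount of 5, removal of low regions, median-ratio scaling, the replicate number as a block, assignment by transcript, a 2-fold rule and leaving out each library were the alternatives. Simulated reads were made for 1 comparison only, Pol II at 24 h in C57, with 4 basal and 3 24 h libraries. They used 1 spread for all regions and no difference in the share of tags within regions. Comparisons with 2 libraries in a group were therefore not checked in this way. The study's methods call the ChIP replicates biological, without saying whether they were separate mice or cultures, and no 2 libraries had identical values. Same-numbered basal and 24 h Pol II libraries deviated together in C57 (r = 0.118 to 0.240), PWK (0.201 to 0.469) and SPRET (0.224 to 0.310), and in the C57 time course (0.109 to 0.226), so the blocked values are given there. This pairing is read from the data and was accepted only where 3 numbered pairs each correlated above 0.1. Comparisons with 2 pairs were not taken as paired, although their r reached 0.492 (H3K27ac in NOD). Same-numbered basal and 6 h Pol II libraries of the time course (r = 0.0709 to 0.254) were not taken as paired. The blocked total there covers all times.

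Gene starts came from GENCODE vM21 on mm10. The members and the gene lists were chosen with earlier results of these data known. Named are regions past the test, the nearest promoter region of each gene, its distal region with the most H3K27ac in C57, and the same positions in the other strains and marks. Where few regions passed, the largest rises and falls among regions past the tag minimum whose groups did not overlap were named too. For these the lack of overlap was a condition of being named and is no evidence of a difference. Genotype Pol II tables held 1 library per group and were not tested.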

Additional observations from a re-analysis of the deposited data

Results flagged for a closer look

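Among 67 groups of 4 libraries examined, 4 held a library far from the rest. The groups came from the C57 strain comparison and the time course, which share the basal libraries, so they are not independent. The 4 are the Atp6v0d2 and Npc2 promoters, each met in both. Such a gap arises by chance in about 1 of 20 independent groups, a share with which 4 of 67 cannot be compared. Pol II at the Atp6v0d2 promoter was 174.1 tags in C57 basal replicate 1 and 44.5 to 62.2 in the other basal libraries of the strain table, and in the time course table, which holds the same libraries, it was 171.6 against 43.5 to 62.2. Pol II at the Npc2 promoter was 331.4 tags in basal replicate 2 and 200.5 to 204 in the others of the strain table, and 333.0 against 199.5 to 204.7 in the time course table.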

How the results depend on the processing

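Apart from the 45 H3K27ac calls at 1 h, which were compared by their count alone, 64 called regions were taken one by one. Of these none changed direction under any alternative run, and 46 of the 61 to which DESeq2 gave an adjusted p kept the call with it, 46 with edgeR, 44 with median-ratio scaling, 63 with a pseudocount of 5, 61 without low regions and 59 with the replicate block. Counts in the order C57, BALB, NOD, PWK, SPRET follow, without the share of all regions, and the cause of each move was not tested. With the replicate block they were 124, 5, 37, 9 and 15 for H3K27ac, 9, 0, 40, 36 and 65 for Pol II, 75 for H3K4me2 and 118 for H3K4me3 over all strains, 110 at 1 h, 21 at 6 h and 12 at 24 h for H3K27ac in the time course, 31 for time course Pol II and 2 for EGR2. DESeq2 gave 5, 5, 2, 4 and 8 for H3K27ac, 5 (C57), 4 (NOD), 8 (PWK) and 22 (SPRET) for Pol II, 8 for H3K4me3, 28, 17 and 9 for time course H3K27ac, 32 for Pol II, 3 for EGR2 and 7 for genotype. edgeR gave 1, 3, 1 and 1 for H3K27ac, without SPRET, 3 (BALB), 1 (NOD) and 12 (SPRET) for Pol II, 3 for H3K4me2, 13 for H3K4me3, 10 at 1 h, 9 at 6 h and 8 for time course Pol II. Median-ratio scaling gave 4 (BALB) and 1 (PWK) for H3K27ac, 2 (BALB) for Pol II, 2 each for H3K4me2 and H3K4me3, 13 at 1 h and 9 at 6 h. Without low regions H3K27ac had 1 (NOD) and 5 (SPRET), H3K4me3 4 and the time course at 24 h 0. A pseudocount of 5 gave 2 for H3K4me3 and 1 for EGR2, and assignment by transcript 7 at 6 h. The 2-fold rule gave 97 for H3K27ac and 91 for Pol II.

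Leaving out each library gave 0 to 0, 0 to 19, 0 to 3, 0 to 3 and 0 to 1 for H3K27ac, 0 to 3, 0 to 3, 0 to 0, 1 to 4 and 1 to 8 for Pol II, 0 to 160 for H3K4me2, 0 to 2 for H3K4me3, 0 to 171, 0 to 18 and 0 to 11 at 1, 6 and 24 h, 2 to 16 for time course Pol II, 0 to 17 for EGR2 and 8 to 15 for genotype. Where the numbers did not pair the libraries the block is given here alone. Intervals of whole reads cover counting error only, and with 2 libraries in most groups moderate differences at regions of few tags were not detectable.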
